A study of Homo sapiens with 12 samples.

Results

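The expression of 10 genes of the BCL2 family, with *BMF* at their head, was followed in OPM-1 cells, which derive from human multiple myeloma and are grown as an established line. All 10 were found by name among the 38478 genes of the deposited table. *BMF* was selected on its RPKM with the RUNX inhibitor AI-10-104, which was low relative to DMSO, so the values of *BMF* in that comparison are given as a description with no test. The other 9 genes (*BCL2L11*, *BBC3*, *PMAIP1*, *BID*, *BAX*, *BAK1*, *BCL2*, *MCL1* and *BCL2L1*) were listed as members of its family. Cells received DMSO alone, lenalidomide (LEN) at 0.1 μM, AI-10-104 at 1 μM, or both drugs together (LEN+AI-10-104), each for 48 h and in 3 biological replicates, and polyadenylated RNA was sequenced. Lenalidomide directs the ubiquitin ligase adaptor cereblon to the transcription factors IKZF1 and IKZF3, and AI-10-104 blocks the binding of RUNX proteins to their partner CBFβ. All samples come from this single line, so the spread between replicates does not include differences between patients or between myeloma lines.

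Proteins of the BCL2 family decide whether the outer membrane of mitochondria is opened, the step that commits a cell to apoptosis. The effectors BAX and BAK form the pores, the pro-survival proteins BCL2, MCL1 and BCL-xL (encoded by *BCL2L1*) hold them back, and the BH3-only proteins BMF, BIM (*BCL2L11*), PUMA (*BBC3*), NOXA (*PMAIP1*) and BID bind the pro-survival proteins, the effectors or both. Plasma cells and myeloma cells are known for their dependence on MCL1. BMF is held at motor complexes of the cytoskeleton through a dynein light chain and is released by stress.

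Expression is given in RPKM, a read number scaled to the length of the gene and to the reads counted on all genes of the sample. RPKM is relative to the total RNA of a sample, so that less of one RNA per cell and fewer cells that make it cannot be told apart. The samples held between 16352548 and 31386210 reads on genes, and the median was lowest, at 19417027, in LEN+AI-10-104. In all 12 pairs of replicates the read numbers differed beyond sampling noise, the chi-square divided by its degrees of freedom being 1.81 to 8.93. Markers of plasma cells were abundant, from 22.9 RPKM for *SLAMF7* to 523 RPKM for *XBP1* on average, and each of 9 markers of T, myeloid, epithelial or stromal cells averaged 0.327 RPKM or less. The summed level of the 7 plasma cell markers was 1095 to 1147 RPKM in DMSO, 1039 to 1065 with LEN, 1262 to 1312 with AI-10-104 and 1080 to 1156 with both drugs, and the part of this in the results was not tested. Differences are log2 fold changes of RPKM + 0.1 from limma, fitted to all 12 samples over 11241 genes whose mean reached 0.5 RPKM. A gene was called changed where the adjusted p was 0.05 or lower and the log2 fold change was 0.32 or more in size. Of the 10 genes, 9 passed the minimum level and *BBC3* did not.

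*BMF* lies on chromosome 15 from 40087890 to 40108892 on the minus strand (GRCh38, GENCODE 44). RefSeq gives the windows around 2 of its start sites, each from 250 bases before the start to 50 bases after it. They are shown because *BMF* is the gene that moved with an inhibitor of RUNX proteins, which bind DNA at a short core motif. The letters TGTGGT and TGCGGT were searched on both strands, and a match is in capitals.
BMF window at chr15:40108830-40109129, minus strand: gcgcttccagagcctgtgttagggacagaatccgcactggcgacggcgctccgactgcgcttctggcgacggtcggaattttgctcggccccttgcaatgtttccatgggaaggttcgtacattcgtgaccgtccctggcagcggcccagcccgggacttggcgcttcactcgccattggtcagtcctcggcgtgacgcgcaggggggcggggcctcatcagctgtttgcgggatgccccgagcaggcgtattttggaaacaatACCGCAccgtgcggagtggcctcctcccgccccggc
BMF window at chr15:40106917-40107216, minus strand: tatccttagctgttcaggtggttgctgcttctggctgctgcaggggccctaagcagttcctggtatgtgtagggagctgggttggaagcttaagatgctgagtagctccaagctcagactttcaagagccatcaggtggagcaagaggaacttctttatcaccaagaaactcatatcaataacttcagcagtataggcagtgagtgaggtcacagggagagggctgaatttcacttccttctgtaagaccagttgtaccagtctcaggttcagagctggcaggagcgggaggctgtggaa
The first window holds 1 match, TGCGGT on the opposite strand, beginning 15 bases after the start site, and the second holds none of these letters. Either motif is found in 19.6% of the 35116 promoter windows of the table. Windows were found for 9 of the 10 genes, and those of *BMF*, *BCL2*, *BAX* and *BCL2L1* held a match, in 4 of 15 windows. A match is a description of the letters and says nothing of binding.

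*BMF*, which was chosen for its fall with AI-10-104, differed most in size between conditions. Its highest condition mean was 4.46-fold its lowest, against 1.42-fold for *BBC3*, the next in the family. In DMSO, replicates 1, 2 and 3 were at 3.50, 3.01 and 3.07 RPKM. With LEN they were at 4.31, 4.11 and 3.63 RPKM, each above every DMSO sample. With AI-10-104 the values were 0.827, 0.929 and 0.949 RPKM, from 90 to 131 reads. With LEN+AI-10-104 they were 1.21, 1.01 and 1.12 RPKM, from 79 to 112 reads. The 6 samples with AI-10-104 were all below the 6 samples without it, and at both levels of AI-10-104 the samples with LEN were above those without LEN. The means were 3.19 ± 0.268, 4.02 ± 0.346, 0.902 ± 0.0657 and 1.11 ± 0.0982 RPKM (SD, n = 3 each) in DMSO, LEN, AI-10-104 and LEN+AI-10-104.

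**Figure D1:**
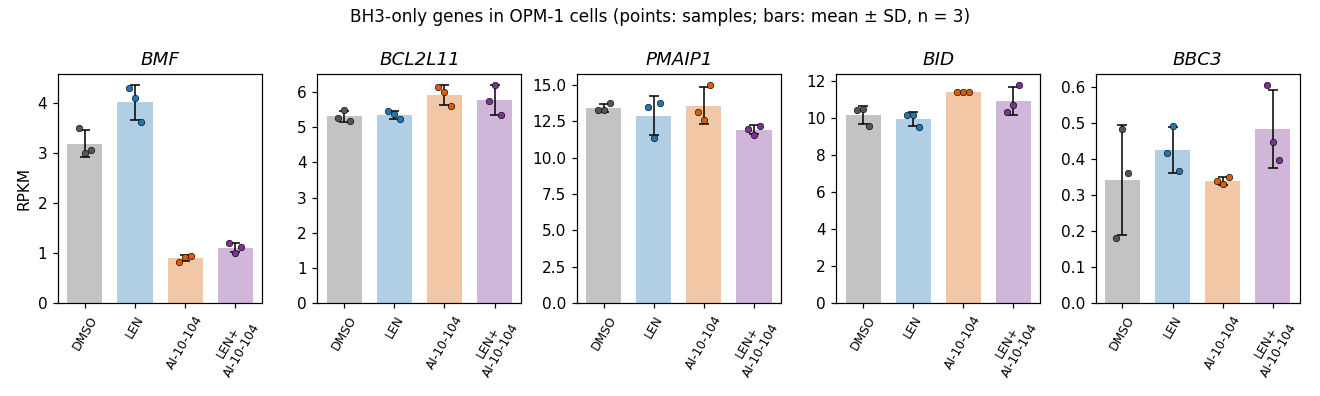
RPKM of the 5 BH3-only genes in each of the 12 samples (points), with the mean and SD of each condition (bars and error bars, n = 3), each panel on its own axis from 0. *BMF* lies at 0.827 to 1.21 RPKM in the 6 samples with AI-10-104 and at 3.01 to 4.31 RPKM in the other 6, while the other 4 genes show no such separation.

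A test of *BMF* was made in cells that also received LEN, where neither the DMSO nor the AI-10-104 samples enter the difference. The gene was chosen with results of all 4 conditions known, so the p of this test is not independent evidence of a fall. In LEN+AI-10-104 relative to LEN, *BMF* fell by 1.76 on the log2 scale (95% interval -1.97 to -1.56, standard error 0.0939, adjusted p = 6.5e-07 from limma), a level 3.40-fold lower. It was the 13th lowest log2 fold change among the 11241 genes tested, of which 0.81% were called lower. Of the 9 members tested, it was the only 1 called in this comparison, and also the only 1 that was chosen for a fall with AI-10-104. The adjusted p ranged from 9.8e-11 to 0.000143 over 23 alternative settings, which included leaving out each of the 12 samples in turn.

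In the comparison that chose it, *BMF* was 3.29-fold lower with AI-10-104 than with DMSO, a log2 difference of -1.72, the 15th lowest of the genes tested. The departure of both drugs from the sum of their single log2 differences was -0.05, which was not tested because it holds the comparison that chose *BMF*. LEN gave log2 differences of 0.32 relative to DMSO and 0.27 in the presence of AI-10-104. LEN+AI-10-104 was at -1.44 relative to DMSO. These values share the samples that chose *BMF*, and they are not independent of each other.

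**Figure D2:**
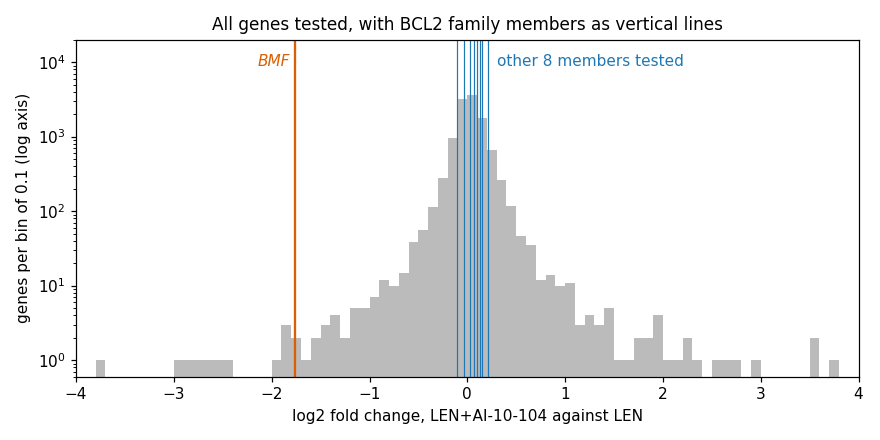
Number of genes (log axis) in bins of 0.1 of the log2 fold change between LEN+AI-10-104 and LEN, for 11240 of the 11241 genes tested (1 lies outside the axis), with the 9 family members tested as vertical lines. *BMF* is at -1.76, and the other 8 lie between -0.10 for *PMAIP1* and 0.21 for *BCL2L1*, within the bulk of genes.

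The genes on either side of *BMF* on chromosome 15 stayed near 0. On one side, *SRP14* and *EIF2AK4* had log2 differences of -0.06 and 0.07 with AI-10-104 relative to DMSO, and 0.04 and 0.01 in LEN+AI-10-104 relative to LEN. On the other side, *BUB1B* and *INAFM2* were at 0.06 and -0.07, and at -0.08 and -0.15. The antisense gene *BMF-AS1* lies within *BMF* on the opposite strand from 40088832 to 40089386 and has no row in the table. The libraries were made with a kit that marks strand, and whether the counting used it is not given in the sources used here, so reads of this antisense gene in the *BMF* value cannot be told apart.

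The genes whose pattern over the 12 samples was most like that of *BMF*, by Pearson correlation of log2(RPKM + 0.1), were *GALM*, a galactose mutarotase (r = 0.996), *ITGAL*, an integrin alpha chain of leukocytes (r = 0.991), *ARHGEF3* (r = 0.978), *INPP4A* (r = 0.978) and *RGL1* (r = 0.978). The 12 points share a split into samples with and without AI-10-104, and the correlations are given as a description with no test. Each of the 5 had a smaller log2 difference with AI-10-104 than *BMF*. *GALM* was at 73.9 RPKM in DMSO, 81.2 with LEN, 40.0 with AI-10-104 and 43.9 with both, and *ITGAL* at 84.9, 97.4, 52.1 and 57.5 RPKM. Within the family, the same correlations with *BMF* ran from -0.80 for *BCL2L1* to 0.55 for *BAK1*.

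None of the other BH3-only members was called in any comparison. *BCL2L11* encodes BIM, which binds all pro-survival proteins, and its samples were at 5.27, 5.49 and 5.17 RPKM in DMSO, 5.45, 5.39 and 5.23 with LEN, 6.14, 5.99 and 5.60 with AI-10-104, and 5.75, 6.20 and 5.35 with both. The AI-10-104 samples were all above the DMSO samples, and the log2 fold change of 0.15 (95% interval 0.03 to 0.28) did not pass (adjusted p = 0.15 from limma). In LEN+AI-10-104 relative to LEN it was 0.10 (95% interval -0.02 to 0.23, adjusted p = 0.34). The ratio of *BMF* to *BCL2L11* in RPKM was 0.602 ± 0.0583 in DMSO, 0.749 ± 0.0491 with LEN, 0.153 ± 0.0175 with AI-10-104 and 0.194 ± 0.0267 with both (SD, n = 3 each).

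*BID* encodes a BH3-only protein that caspase-8 cleaves to its active form. It was at 10.4, 10.5 and 9.57 RPKM in DMSO, 10.2, 10.2 and 9.50 with LEN, 11.4 in each of the AI-10-104 samples, and 10.3, 10.7 and 11.8 with both. All samples with AI-10-104 alone were above all DMSO samples, with a log2 fold change of 0.17 (95% interval 0.05 to 0.28) that did not pass (adjusted p = 0.10 from limma). All samples with both drugs were above those with LEN alone, by 0.13 (95% interval 0.01 to 0.25, adjusted p = 0.19).

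*PMAIP1* encodes NOXA, which binds MCL1, and was the highest of the 5 BH3-only members. It was at 13.3, 13.3 and 13.7 RPKM in DMSO, 13.5, 11.3 and 13.8 with LEN, 13.1, 12.6 and 15.0 with AI-10-104, and 11.6 to 12.2 with both. Apart from LEN replicate 2, the samples with both drugs were the lowest, with a log2 difference of -0.17 from DMSO (95% interval -0.33 to -0.00, adjusted p = 0.20 by limma) and -0.18 relative to AI-10-104 (95% interval -0.35 to -0.02, adjusted p = 0.12). *BBC3*, the gene of PUMA, had 14 to 37 reads in a sample, at 0.181 to 0.482 RPKM in DMSO, 0.366 to 0.492 with LEN, 0.329 to 0.350 with AI-10-104 and 0.397 to 0.605 with both. With the 24115 genes that had any value above 0, its log2 fold change was 0.05 for AI-10-104 relative to DMSO (95% interval -0.50 to 0.61, adjusted p = 1 from limma). With LEN and with both drugs relative to DMSO it was 0.31 (-0.25 to 0.86, adjusted p = 0.86) and 0.45 (-0.11 to 1.00, adjusted p = 0.47), and 0.39 with both drugs relative to AI-10-104 (-0.16 to 0.95, adjusted p = 0.47). Differences within these intervals were not detectable at this depth.

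The effectors were the most abundant of the 10 genes after *MCL1*. *BAX* was at 38.2, 34.9 and 33.0 RPKM in DMSO, 37.4, 37.5 and 35.9 with LEN, 32.6, 35.9 and 33.4 with AI-10-104, and 40.1, 41.5 and 41.1 with both. Every sample with both drugs was above every other sample. Against DMSO the log2 difference was 0.21 (95% interval 0.10 to 0.32, adjusted p = 0.028 by limma), against AI-10-104 it was 0.27 (0.16 to 0.38, adjusted p = 0.0092) and against LEN 0.15 (0.03 to 0.26, adjusted p = 0.13). Each was under the fold change needed for a call. *BAK1* was at 24.3, 22.9 and 22.7 RPKM in DMSO, 24.4, 25.4 and 25.3 with LEN, 20.4, 22.2 and 20.8 with AI-10-104, and 24.3, 25.2 and 24.1 with both. Its AI-10-104 samples lay below those of the other 3 conditions, and the combination was 0.21 higher than AI-10-104 (95% interval 0.12 to 0.30, adjusted p = 0.0089 from limma), again under the fold change for a call. Relative to DMSO, *BAK1* with AI-10-104 was at -0.14 (95% interval -0.23 to -0.05, adjusted p = 0.076).

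**Figure D3:**
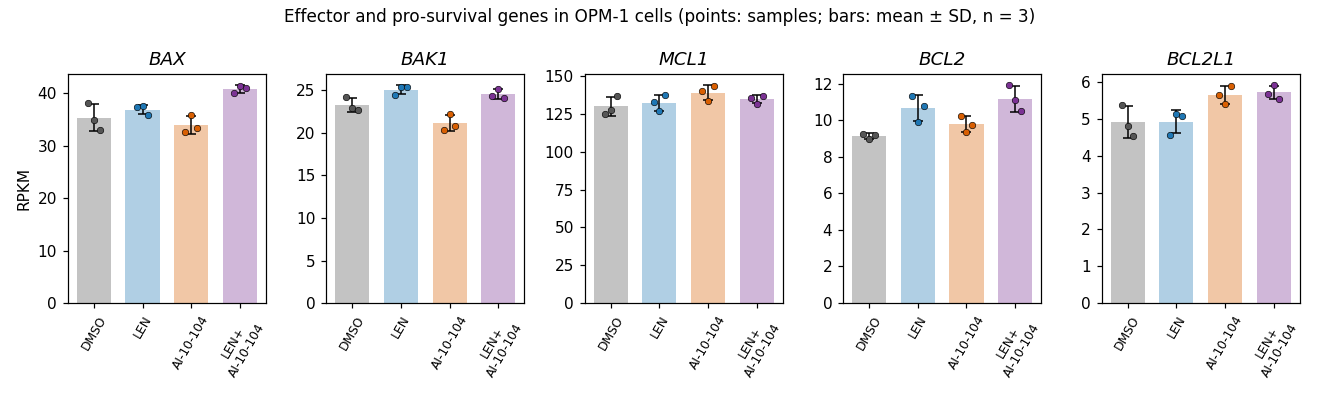
RPKM of the effector genes *BAX* and *BAK1* and the pro-survival genes *MCL1*, *BCL2* and *BCL2L1* in each of the 12 samples (points), with the mean and SD of each condition (bars and error bars, n = 3), each panel on its own axis from 0. The condition means of each gene are within 1.22-fold of each other, and the LEN+AI-10-104 samples of *BAX*, at 40.1 to 41.5 RPKM, are above all others.

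Among the pro-survival genes, *MCL1* stood far above the rest of the family and hardly differed between conditions. It was at 125, 128 and 137 RPKM in DMSO, 133, 127 and 138 with LEN, 140, 134 and 144 with AI-10-104, and 136, 132 and 137 with both. These ranges overlapped in all 5 comparisons, and the largest log2 fold change was 0.10 with AI-10-104 relative to DMSO (95% interval 0.01 to 0.19, adjusted p = 0.20 from limma). *MCL1* had a higher level than 96.2% of the genes tested.

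*BCL2* was at 9.26, 8.97 and 9.19 RPKM in DMSO, 11.3, 9.91 and 10.8 with LEN, 10.2, 9.38 and 9.74 with AI-10-104, and 11.9, 11.1 and 10.5 with both. All samples of each treatment were above the 3 DMSO samples. The log2 fold change was 0.29 with both drugs (95% interval 0.16 to 0.41, adjusted p = 0.012 from limma), under the fold change for a call, and without replicate 3 of LEN+AI-10-104 it was 0.33, and *BCL2* was called (adjusted p = 0.012). With LEN alone it was 0.22 (0.09 to 0.35, adjusted p = 0.12), with AI-10-104 alone 0.10 (-0.03 to 0.22, adjusted p = 0.36), and in the combination relative to AI-10-104 0.19 (0.06 to 0.32, adjusted p = 0.049). *BCL2L1* was at 5.39, 4.81 and 4.55 RPKM in DMSO, 4.57, 5.13 and 5.07 with LEN, 5.64, 5.40 and 5.90 with AI-10-104, and 5.69, 5.92 and 5.55 with both. Its AI-10-104 samples were all above those of DMSO, and its LEN+AI-10-104 samples all above those of LEN. Of all genes, 23.3% and 26.4% were separated in either direction in these comparisons. The log2 fold changes of 0.20 relative to DMSO (95% interval 0.05 to 0.35, adjusted p = 0.12 by limma) and 0.21 between LEN+AI-10-104 and LEN (0.07 to 0.36, adjusted p = 0.099) did not pass.

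**Figure D4:**
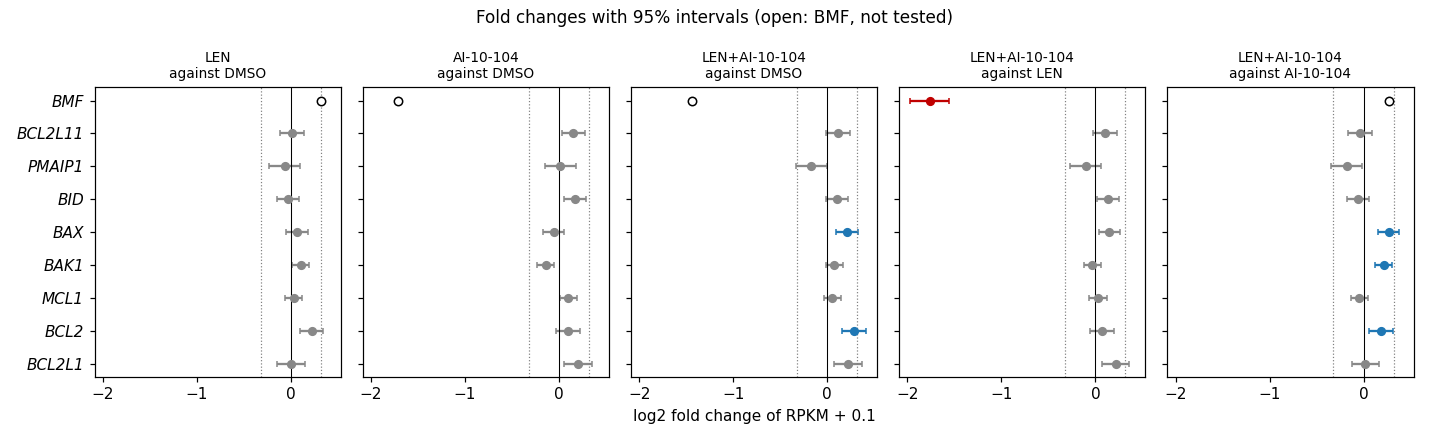
Log2 fold changes of RPKM + 0.1 for the 9 members tested in 5 comparisons, with 95% intervals (bars), 0 as a solid line and the fold change needed for a call as dotted lines. Red marks a called gene, blue an adjusted p of at most 0.05 below that fold change, grey neither, and open points *BMF* where it was not tested. *BMF* in LEN+AI-10-104 relative to LEN, at -1.76, is the only called value.

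Counted over the family, none of the 8 members tested other than *BMF* was called in any of the 5 comparisons. Relative to DMSO, limma called 0.649% of all genes tested with LEN, 1.77% with AI-10-104 and 2.94% with both drugs, and 1.68% in LEN+AI-10-104 relative to LEN and 3.63% relative to AI-10-104. At an unadjusted p under 0.05, these 8 genes counted 2 with LEN, 5 with AI-10-104 and 4 with both drugs, against 10.7%, 21.9% and 23.7% of all genes. The voom method of limma, run on the recovered reads, also called 0 of the 8 in these comparisons. Of the 11241 genes, voom called 104 with LEN, 282 with AI-10-104 and 384 with both drugs. By the adjusted p of voom alone, 1, 0 and 2 of the 8 passed, where 226, 991 and 1169 of all genes did. In LEN+AI-10-104 relative to AI-10-104, 3 of the 8 passed in this way, where 1971 of all genes did. Counted by samples that do not overlap, 2 of 9 members other than *BMF* lay wholly above DMSO with LEN and 0 below, where 16.4% of all genes were separated in either direction. With AI-10-104, 4 of the 9 lay above DMSO and 1 below (23.3% of all genes separated), and with both drugs 3 lay above and 1 below (29.2%). In LEN+AI-10-104, 3 of the 10 members lay above LEN and 1, *BMF*, below (26.4%), and 4 of the 9 above AI-10-104 and 1 below (34.1%). By the adjusted p alone, 2 of the 8 (*BAX* and *BCL2*) passed as higher with both drugs relative to DMSO, where 5.64% of all genes did, and 3 of the 8 (*BAX*, *BAK1* and *BCL2*) relative to AI-10-104, where 9.13% did. The median log2 fold change of the 8 was 0.10 with AI-10-104 and 0.11 with both drugs relative to DMSO, where the median of all genes was 0.01 and 0.02. It was 0.02 with LEN relative to DMSO and -0.009 in LEN+AI-10-104 relative to AI-10-104. The medians of all genes there were -0.002 and 0.02. A departure of both drugs from the sum of their single log2 effects was found in 0 of these 8 genes and 0 of the 11241 genes by limma, with 1 (*BAX*, 0.20) and 1621 at an unadjusted p under 0.05, and in 0 and 3 by voom.

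Levels can be compared between genes in RPKM, which is per length. In DMSO the order was *MCL1* (130.0 RPKM), *BAX* (35.4), *BAK1* (23.3), *PMAIP1* (13.4), *BID* (10.2), *BCL2* (9.14), *BCL2L11* (5.31), *BCL2L1* (4.92), *BMF* (3.19) and *BBC3* (0.341). The samples of *BCL2L11* and *BCL2L1* overlapped in DMSO, and those of the other neighbours in this order did not. With AI-10-104 *BMF* stayed in the ninth place. The lengths used by the authors differ from the summed exons of GENCODE, by the largest ratio for *BAX* (1340 against 2587 bases), and the order of close neighbours depends on them.

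**Figure D5:**
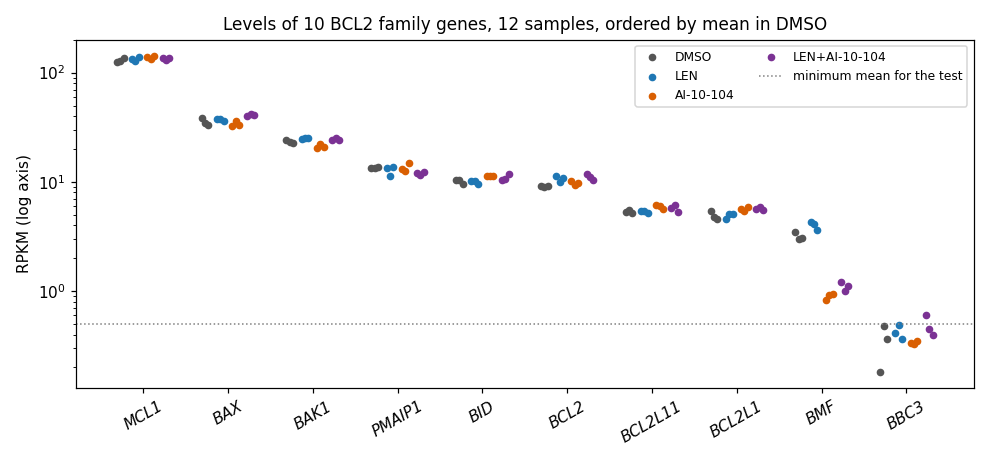
RPKM (log axis) of the 10 genes in the 12 samples, in the order of their mean in DMSO, with the samples of each condition in one color and the minimum mean for the test as a dotted line. *MCL1* is at 125 to 144 RPKM, *BMF* is the gene that drops in the AI-10-104 and LEN+AI-10-104 samples, and *BBC3* lies around or below the dotted line.

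Summed over roles, the 5 BH3-only members added up to 32.4 ± 0.452 RPKM in DMSO, 32.6 ± 1.16 with LEN, 32.1 ± 1.04 with AI-10-104 and 30.2 ± 0.535 with both (SD, n = 3 each). The share of *BMF* in this sum was 9.85% ± 0.789 in DMSO, 12.3% ± 1.01 with LEN, 2.81% ± 0.191 with AI-10-104 and 3.68% ± 0.334 with both. The 3 pro-survival genes added up to 144 ± 5.71, 148 ± 5.78, 155 ± 5.56 and 152 ± 2.43 RPKM in the same order, and the 2 effectors to 58.7 ± 3.46, 62.0 ± 0.863, 55.1 ± 2.66 and 65.4 ± 1.16 RPKM. The BH3-only sum depends on which genes are counted. With *BAD*, *BIK* and *HRK*, further BH3-only genes that were added after the values were seen, it was 55.7 ± 0.587, 55.9 ± 0.98, 56.6 ± 0.982 and 57.8 ± 1.11 RPKM in the same order, highest rather than lowest with both drugs. The share of *BMF* in this wider sum was 5.74% ± 0.508, 7.18% ± 0.531, 1.59% ± 0.0947 and 1.92% ± 0.136. These sums are descriptions of RNA with no test, since RNA levels do not give the amounts of these proteins.

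Of 13 further genes of the BCL2 family, 5 were high enough to be tested and 0 were called in any comparison. Over the 5 comparisons, 0.649% to 3.63% of all genes were called, so 0 calls in lists this short are near that share. By the adjusted p alone, 1 of the 5 passed as higher with both drugs relative to DMSO, where 5.64% of all genes did. This was *BAD*, a BH3-only gene at 23.1 ± 1.06 RPKM in DMSO and 27.4 ± 1.39 with both (SD, n = 3 each). The log2 difference was 0.24 (95% interval 0.15 to 0.34, adjusted p = 0.0071 from limma). In LEN+AI-10-104, *BAD* was also 0.24 above LEN (95% interval 0.14 to 0.34, limma adjusted p = 0.012), passing in 21 of 23 alternatives. Measured against the AI-10-104 samples, 2 of the 5 passed as higher with both drugs, where 9.13% of all genes did. These were *BAD* (0.18, limma adjusted p = 0.026) and *BCL2L12* (0.17, limma adjusted p = 0.038). They passed in 17 and 11 of the 23 alternatives. Each of these differences was under the fold change for a call. The pro-survival gene *BCL2A1* had at most 1 read per sample, and *BIK*, a BH3-only gene, at most 4. Of 7 genes of the death receptor arm, which leads to the cleavage of BID, all 7 were tested and 0 were called, with log2 fold changes from -0.08 to 0.07 for AI-10-104 relative to DMSO.

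Downstream of mitochondria, 13 genes of the apoptosome, the caspases and their partners were all tested and 0 were called (0.649% to 3.63% of all genes). The cytochrome c gene *CYCS* was at a log2 fold change of -0.21 in LEN+AI-10-104 relative to AI-10-104 (adjusted p = 0.011 from limma), under the fold change for a call. *CASP6*, the gene of an executioner caspase, had the highest level of them, at 133 RPKM over the 12 samples. Of 5 inhibitor of apoptosis genes that were tested, *BIRC3* was called. *BIRC3*, which encodes cIAP2, rose from 65.5 ± 6.71 RPKM in DMSO to 95.5 ± 6.47 with AI-10-104 and 87.9 ± 3.27 with both, and was at 68.7 ± 5.46 with LEN (SD, n = 3 each). The log2 fold change of *BIRC3* was 0.55 with AI-10-104 (95% interval 0.38 to 0.71, adjusted p = 0.0023 from limma) and 0.43 with both drugs relative to DMSO (0.26 to 0.60, adjusted p = 0.0064). In LEN+AI-10-104 relative to LEN, *BIRC3* was 0.36 higher (0.19 to 0.53, adjusted p = 0.024), and this call was lost without LEN replicate 1 or 2 or without any one of the LEN+AI-10-104 replicates (adjusted p of 0.051 to 0.078 from limma), and with all genes that had any value above 0 (adjusted p = 0.069). *BIRC5* was 0.21 higher in LEN+AI-10-104 than in AI-10-104 (adjusted p = 0.034 from limma), under the fold change for a call. *BIRC7* and *NAIP* are listed at 0 in all samples.

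Of 10 genes for anchors, partners and turnover of BCL2 family proteins, 10 were tested and 0 were called (0.649% to 3.63% of all genes). The dynein light chain gene *DYNLL2*, whose product binds BMF, was at 69.9 RPKM in DMSO, 69.9 with LEN, 64.4 with AI-10-104 and 71.5 with both. In LEN+AI-10-104 relative to AI-10-104, *DYNLL2* was at 0.15 (adjusted p = 0.013 from limma), under the fold change for a call. In the same comparison *FBXW7* was at -0.16 (adjusted p = 0.026 from limma) and *MTCH2* at -0.11 (adjusted p = 0.040), also under it. With AI-10-104 relative to DMSO, *FBXW7* was at 0.17 (adjusted p = 0.035 from limma). *MYO5A*, the gene of the myosin V heavy chain, was at 25.4 ± 0.402 RPKM in DMSO, 27.2 ± 0.857 with LEN, 21.8 ± 0.839 with AI-10-104 and 22.1 ± 0.83 with both (SD, n = 3 each). Its log2 fold change of -0.30 in LEN+AI-10-104 relative to LEN (95% interval -0.39 to -0.21, adjusted p = 0.0015 from limma) and of -0.22 with AI-10-104 relative to DMSO (-0.31 to -0.13, adjusted p = 0.012) passed by the adjusted p but not by the fold change. Without LEN replicate 2 or LEN+AI-10-104 replicate 2, *MYO5A* was called in the first of these, at -0.33 and -0.32, and likewise after median-ratio rescaling, at -0.33. With both drugs relative to DMSO, *MYO5A* was at -0.20 (adjusted p = 0.011 from limma), again under the fold change for a call.

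Of 7 transcription factors that can drive BH3-only genes, all were tested, and *JUN* was called once. It was 0.37 higher in LEN+AI-10-104 than in AI-10-104 (95% interval 0.16 to 0.57, adjusted p = 0.025 from limma), a call lost without AI-10-104 replicate 1 or 3 or LEN+AI-10-104 replicate 1 or 2 (adjusted p of 0.062 to 0.101 from limma), with all genes that had any value above 0 (adjusted p = 0.066) and with only the compared conditions in the fit (adjusted p = 0.068). *ATF4* was at -0.26 with both drugs relative to DMSO (adjusted p = 0.027 from limma), under the fold change for a call. *FOXO3*, a forkhead factor known to act on *BCL2L11*, was at 13.1 ± 0.45 RPKM in DMSO, 14.1 ± 0.237 with LEN, 10.5 ± 0.746 with AI-10-104 and 11.4 ± 0.77 with both (SD, n = 3 each). The log2 difference of *FOXO3* was -0.31 both with AI-10-104 relative to DMSO (adjusted p = 0.012 by limma) and in LEN+AI-10-104 relative to LEN (adjusted p = 0.012), just short of the fold change for a call. *FOXO3* was called in the first of these without DMSO replicate 1 or 3 or AI-10-104 replicate 2 (-0.37 to -0.32), and in the second without LEN replicate 3 or LEN+AI-10-104 replicate 1 or 2 (-0.35 to -0.33). Median-ratio rescaling also gave a call of *FOXO3* in both (-0.32 and -0.34), and quantile normalization in the second (-0.33). By the adjusted p alone, *FOXO3* passed in 19 of the 23 alternatives in the first (adjusted p up to 0.057 from limma). In the second it passed in 22 of the 23 (up to 0.0501).

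Gene-level values do not separate transcripts, of which GENCODE lists 10 for *BMF*, 14 for *BCL2L11*, 8 for *MCL1* and 15 for *BCL2L1*, and some of the last 3 genes' transcripts encode proteins with a different or opposite role. *BCL2L11* lies within the bounds of the long noncoding gene *MIR4435-2HG* on the opposite strand, which had 444 to 864 reads per sample beside 854 to 1489 for *BCL2L11*. As for *BMF-AS1*, reads of this gene in the *BCL2L11* value cannot be told apart.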

How the data were processed

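Total RNA of OPM-1 cells was selected for poly(A) and sequenced in 3 biological replicates for each of 4 conditions. STAR and GRCh38 were used by the authors for mapping, and the deposited file holds RPKM values of genes beside gene lengths from featureCounts per the file headers. Versions and counting settings are not given in the sources used here. The submitters' processing notes also name FastQC, Cuffnorm and DESeq2. FPKM had been planned for, but the header names RPKM, and the same test applied. Read numbers were recovered from RPKM, gene length and the smallest step of each sample, and 100% of values came within 0.02 of a whole read. Of the gene names, 28 are spreadsheet date numbers.

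The test was limma 3.58.1 (R 4.3.3), applied to log2(RPKM + 0.1) of genes whose mean reached 0.5 RPKM, with all 12 samples in a model of condition means, a variance trend and Benjamini-Hochberg adjustment over 11241 genes. Intervals are 95% intervals of that fit. The main test used the deposited values, which are normalized, and voom on the recovered reads was an alternative. *BMF* was tested in LEN+AI-10-104 relative to LEN alone. Gene members and lists were chosen with earlier results of these data known. Named genes are the 10 members, list genes that were called or are high in their list, and the 5 genes most correlated with *BMF*. The list genes that passed by the adjusted p alone, the genes next to *BMF*, and *DYNLL2*, *BCL2A1*, *BIK*, *BIRC7* and *NAIP* were added to these once values were known. Alternatives were other pseudocounts (1 and 0.01), filters (any value above 0, a mean of 1), median-ratio rescaling, quantile normalization, the replicate number as a block, only the compared conditions, no variance trend, no fold change threshold, voom and leaving out each sample. The procedure was run on simulated read numbers with planted changes larger than those of any member but *BMF*. They held no effect of the replicate number, so this run does not bear on small differences in the real samples. Tables were made with Python 3.11.15, numpy 2.4.6 and pandas 2.3.3 and figures with matplotlib 3.10.9. Coordinates are from GENCODE 44 and promoter windows from RefSeq (GRCh38.p14). Reads carry no molecular identifiers, and read numbers cover counting error only.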

Additional observations from a re-analysis of the deposited data

How the results depend on the processing

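The fall of *BMF* in LEN+AI-10-104 relative to LEN kept its direction and its call under all 23 alternatives, with log2 fold changes from -1.84 with a pseudocount of 0.01 to -1.25 with a pseudocount of 1, and from -1.83 to -1.70 with each sample left out in turn. Leaving out a DMSO or AI-10-104 sample, the filters, the block, only the compared conditions, no variance trend and no threshold left it at -1.76. These settings can change only its standard error, its adjusted p or its call. *BMF* was chosen for its fall with AI-10-104, so the alternatives are not independent evidence of a fall. Without the fold change threshold, the number of members called was 2 with both drugs relative to DMSO and 3 relative to AI-10-104, where it was 0 with the threshold. Leaving out each sample in turn gave 0 to 1 members with both drugs relative to DMSO, 1 to 1 relative to LEN, and 0 to 0 in the other comparisons. A pseudocount of 1 moved the untested differences of *BMF* to -1.14 with AI-10-104 and -0.99 with both drugs relative to DMSO, and to 0.15 in LEN+AI-10-104 relative to AI-10-104.

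By the adjusted p alone, *BAX* and *BAK1* passed relative to AI-10-104 in 23 of 23 alternatives. The setting with no fold change threshold counts among the 23, and it leaves the adjusted p of the main fit unchanged. *BCL2* passed relative to DMSO in 21 (adjusted p up to 0.053), *BAX* relative to DMSO in 15 (up to 0.097) and *BCL2* relative to AI-10-104 in 9 (up to 0.16) of the 23 alternatives, all from limma. Of the list genes, only those with an adjusted p of 0.05 or lower in some comparison were recomputed under the alternatives. Among these and the members tested, values that changed sign were at most 0.06 in size in the main fit, and none was called. With the replicate number as a block (replicate block), the fit called the same number of members, 0 or 1, in each comparison, and for *BMF* in LEN+AI-10-104 relative to LEN it gave -1.76 (adjusted p = 9.3e-06 from limma). Deviations from the condition means correlated at -0.03 to 0.16 in the 18 pairs that share a replicate number (mean r 0.052), and by mean correlation each of the 12 samples was closest to its own number. This is a hint from the data and not from the labels, which do not say that a number marks a shared batch or day. Depth limits *BBC3*, at 14 to 37 reads per sample.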
